A study of Saccharomyces cerevisiae with 19 samples.

Results

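Inositol and phospholipid synthesis in budding yeast was followed through 8 genes of 5449 measured, taken by symbol from the array's annotation: INO1, ITR1, CHO1, CHO2, OPI3, INO2, INO4 and OPI1. These genes were chosen by their place in the pathway with earlier results of the same arrays known. Which values were looked at is not recorded, so the strain differences and the time courses are both taken as used. Their differences between strains and over time are therefore given as descriptions, with estimates and no p-values, and nothing is supported by them. Total RNA was read on 19 Affymetrix Yeast 2.0 arrays, 1 for each strain and time. The wild type was sampled every 12 h from 12 to 120 h (10 arrays) and a strain labelled Sch9 Mutant, in which the series names the gene SCH9 as deleted, from 12 to 108 h (9 arrays). A mutant array at 120 h, which the submitters dropped because it looked abnormal, was not analysed here. Both strains came from frozen stocks, were grown overnight in SDC, a synthetic complete medium, until saturated, then diluted and kept shaking with no further treatment. The background genotype, further markers and whether successive times came from the same flask are not given in the labels. The kinase Sch9 acts in nutrient signalling, and yeast without it are known to survive longer once division has stopped.

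Inositol is the head group of phosphatidylinositol and of yeast sphingolipids. Yeast cells make it from glucose 6-phosphate or take it up, and they build phosphatidylserine, phosphatidylethanolamine and phosphatidylcholine in a chain from the precursor CDP-diacylglycerol. Genes of both branches are known to be switched together: the heterodimer of Ino2 and Ino4 activates them when inositol is scarce, and Opi1 represses them when inositol is plentiful, being held at the endoplasmic reticulum by phosphatidic acid until that lipid is used up. In textbook accounts these genes are high in growing cells without inositol and low in stationary cells.

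Every level below is a log2 signal after quantile normalization, and every difference is the labelled mutant minus the wild type at the same time. A bulk array reads a message as a share of total RNA, so fewer expressing cells and less message per cell cannot be told apart. Levels are compared only within a gene, since probe sets differ in brightness. The small number of arrays, 1 per strain and time, limits how precisely any of them is known.

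The pattern shared by most of the genes was a parting of the strains between 24 and 36 h. At 12 and 24 h the signals of INO1, ITR1, CHO1, OPI3 and INO4 differed between strains by at most 0.29. In the deposited values these early differences ran from -0.33 for INO4 to 0.62 for INO1, both at 24 h. From 36 h on, the mutant signal of each of these genes was below every wild-type signal from the same hours. INO1 had the largest mean difference, -2.57 ± 0.47 (SD, n = 7 times), which is 5.92-fold, followed by CHO2 at -1.79 ± 0.36, ITR1 at -1.48 ± 0.15, OPI3 at -1.41 ± 0.51, INO4 at -1.29 ± 0.10, CHO1 at -1.28 ± 0.16 and OPI1 at -0.84 ± 0.39. From CHO2 to CHO1, neighbours in this order lay closer together than the wider SD of each pair. INO2 stood apart at -0.16 ± 0.32, and its strains overlapped. Levels from 36 h did not overlap, with the mutant lower, for 7 of the 8 genes and for 17.1% of all genes. In the deposited values those of OPI1 did overlap, with 9.53 in the wild type and 9.68 in the mutant at 96 h. The arrays of both strains are plotted gene by gene over time.

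**Figure D1:**
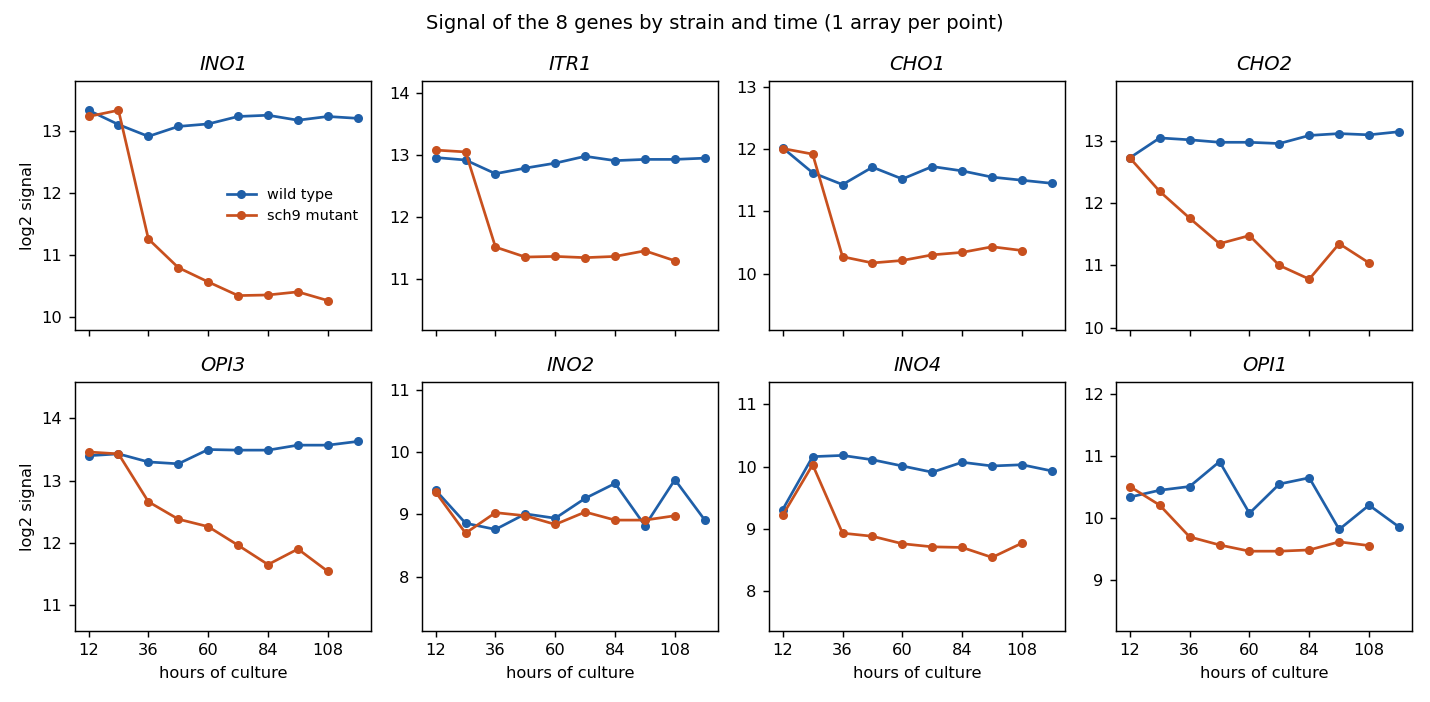
Log2 signal (quantile-normalized) of the 8 genes against hours of culture, 1 array per point, with the wild type in blue and the labelled mutant in orange, each panel spanning 4 log2 units. The strains lie close together at 12 h in all 8 panels and are apart from 36 h in all but that of INO2, which has a mean difference of -0.16 from then on.

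INO1 encodes inositol-3-phosphate synthase, the enzyme that commits glucose 6-phosphate to inositol, and is the classical target of Ino2 and Ino4 (YJL153C, chromosome X, 134332 to 135933 on assembly R64). In the wild type its signals from 12 to 120 h were 13.33, 13.10, 12.91, 13.07, 13.11, 13.23, 13.25, 13.17, 13.23 and 13.20. All 10 lay within a range of 0.42, so the wild type showed hardly any movement over 5 days. In the labelled mutant they were 13.23 and 13.33 at 12 and 24 h, then 11.26, 10.80, 10.57, 10.35, 10.36, 10.41 and 10.27 from 36 to 108 h. The first pair matched the wild type and the other 7 were all lower than any wild-type array. Between 24 and 36 h the mutant signal changed by -2.07, the 5th largest decrease among all 5449 genes over that step. A further -0.99 followed from 36 to 108 h.

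ITR1 encodes the main inositol permease of the plasma membrane (YDR497C, chromosome IV, 1443713 to 1445467). Its wild-type signals were 12.96, 12.92, 12.70, 12.79, 12.87, 12.98, 12.91, 12.93, 12.93 and 12.95. In the labelled mutant they were 13.08, 13.05, 11.52, 11.36, 11.37, 11.35, 11.37, 11.46 and 11.30. The mutant thus took 1 step of -1.53 between 24 and 36 h and then stayed within 11.30 to 11.52. The SD of its 7 late arrays was 0.07, against 0.35 for INO1.

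The 3 enzymes of the phosphatidylcholine route parted in different ways. CHO1 encodes phosphatidylserine synthase (YER026C, chromosome V, 207644 to 208474). Its wild-type signals were 12.02, 11.62, 11.43, 11.71, 11.52, 11.72, 11.65, 11.55, 11.50 and 11.45, and the mutant signals 12.01, 11.92, 10.27, 10.17, 10.21, 10.30, 10.34, 10.43 and 10.37. The mutant signal changed by -1.65 from 24 to 36 h and by 0.10 from 36 to 108 h, while the difference from the wild type was -1.16 at 36 h and -1.54 at 48 h.

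CHO2 encodes the methyltransferase that takes phosphatidylethanolamine through the first methylation (YGR157W, chromosome VII, 802440 to 805049). Its wild-type signals began at 12.73 and then held a band of 12.96 to 13.15. The mutant signals were 12.73, 12.19, 11.76, 11.35 and 11.48 up to 60 h and lay between 10.78 and 11.35 from 72 h. CHO2 was the member that already differed at 24 h, by -0.86, and its mutant signal was lowest at 84 h. Its step from 24 to 36 h was only -0.43, or 37.6% of the change from 24 to 108 h.

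OPI3 encodes the methyltransferase of the last methylations to phosphatidylcholine (YJR073C, chromosome X, 572315 to 572935). The wild-type signals ran from 13.27 to 13.63. In the labelled mutant they were 13.46, 13.43, 12.66, 12.38, 12.26, 11.96, 11.65, 11.90 and 11.54. The difference was 0.00 at 24 h, -0.64 at 36 h and -2.03 at 108 h. By 36 h the mutant signal itself had covered 40.9% of its own change from 24 to 108 h, against 67.6% for INO1, 87.4% for ITR1 and 107% for CHO1, whose signal came back slightly.

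**Figure D2:**
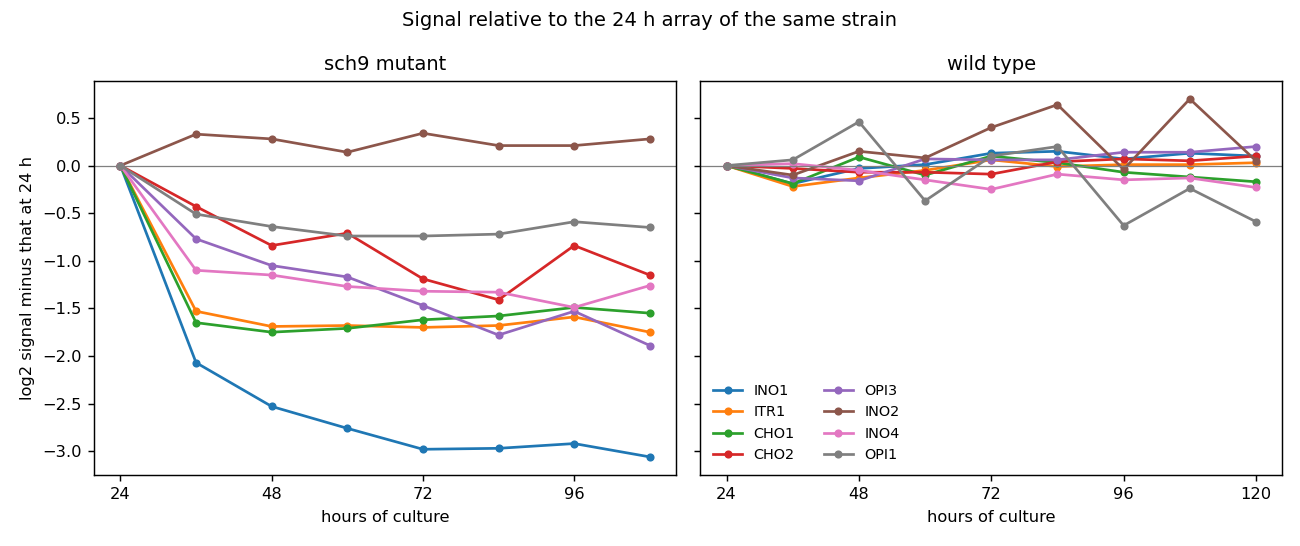
Log2 signal of the 8 genes minus that of the 24 h array of the same strain, against hours of culture, with the labelled mutant on the left and the wild type on the right, 1 array per point. In the mutant ITR1, CHO1 and INO4 are near their later level at 36 h, while INO1, CHO2 and OPI3 continue downward, OPI3 by a further 1.12 from 36 to 108 h. In the wild type the lines stay near 0 from 36 h on, with INO2 and OPI1 the most scattered.

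The regulators did not move as a unit. INO4 encodes one partner of the activating heterodimer (YOL108C, chromosome XV, 111431 to 111886). Its wild-type signals were 9.31, 10.16, 10.18, 10.11, 10.01, 9.91, 10.07, 10.01, 10.03 and 9.93. The mutant signals were 9.22, 10.03, 8.93, 8.88, 8.76, 8.71, 8.70, 8.54 and 8.77. Both strains were thus higher at 24 h than at 12 h, by 0.85 and 0.81. The wild type then kept that level, and the mutant went below its own 12 h signal.

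INO2 encodes the other partner, which carries the activation domain (YDR123C, chromosome IV, 698554 to 699468). Its wild-type signals ranged from 8.76 to 9.56 with a median of 8.98, and the mutant signals from 8.70 to 9.36, also with a median of 8.98. In both strains the 24 h array was lower than the 12 h array, by 0.53 in the wild type and 0.66 in the mutant. The strain difference changed sign between times, from 0.27 at 36 h to -0.58 at 84 h. The fitted mean of -0.15 became 0.16 in the values as deposited and -0.26 with array weights, where it passed the threshold. INO2 was in the dimmest 25% of genes, which 1 alternative left out. Whether its dim signal hid a difference was not tested.

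OPI1 encodes the repressor (YHL020C, chromosome VIII, 66242 to 67456) and is itself known as a target of the pathway. Its wild-type signals were 10.34, 10.45, 10.51, 10.91, 10.08, 10.55, 10.65, 9.82, 10.21 and 9.86, and the mutant signals 10.51, 10.21, 9.70, 9.57, 9.47, 9.47, 9.49, 9.62 and 9.56. From 36 h the difference was negative at all 7 times, between -1.33 at 48 h and -0.20 at 96 h. As deposited, it was 0.15 at 96 h. The spread of the difference over times came from the wild type, where the SD from 36 h was 0.39, against 0.09 in the mutant. The repressor's own signal was thus low in the arrays in which those of its known targets were low.

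**Figure D3:**
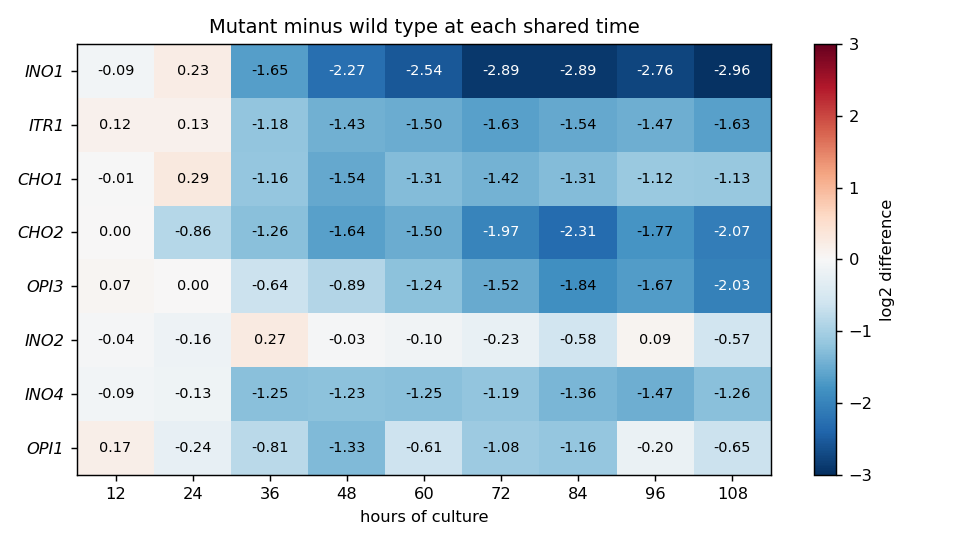
Log2 difference, labelled mutant minus wild type, for the 8 genes (rows) at the 9 shared times (columns, hours), each cell 1 pair of arrays with its value printed and blue for lower in the mutant. At 12 h all cells lie between -0.09 and 0.17, CHO2 is the cell at -0.86 at 24 h, and from 36 h every cell but those of INO2 is below 0.

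Across the 9 shared times limma gave strain estimates of -1.98 (SE 0.35) for INO1, -1.49 (SE 0.20) for CHO2, -1.12 (SE 0.21) for ITR1, -1.09 (SE 0.22) for OPI3, -1.03 (SE 0.15) for INO4, -0.97 (SE 0.19) for CHO1, -0.66 (SE 0.15) for OPI1 and -0.15 (SE 0.09) for INO2. By the fit over all genes 7 of the 8 were lower past the threshold of an adjusted p of 0.05, and none higher. This threshold called 26.8% of all genes lower and 32.4% higher. As these differences were known when the genes were taken, nothing is read from that count. The median estimate was -1.06 for the 8 genes and 0.03 for all genes. Scaling moved the median of all genes to 0.17 (deposited values) and -0.09 (median centring), and that of the 8 genes to -1.10 and -1.35.

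The strains' columns were not written in the same way: 94.0% to 99.0% of the values of each mutant column shared their last digits (65, at the eighth and ninth decimal), while no pair of end digits other than 00 reached more than 1.44% in a wild-type column. How the columns were made and strain therefore cannot be told apart. The ribosomal and degradation controls of the arrays also differed between the strains. As deposited, the 18S ribosomal RNA 3' probe set had wild-type signals between 8.03 and 8.70 up to 48 h and of 14.64 at 120 h. Its mutant signals had a range of 6.69 to 7.68. The 3' to 5' score, the mean log2 excess of 3' over 5' signal in 10 control pairs, had wild-type values of 0.80 to 1.44, lowest at 12 h and highest at 120 h, and mutant values of 0.73 to 1.06. At 24 h the scores were 0.82 in the wild type and 1.06 in the mutant, the highest of the mutant arrays. At 36 h they were 0.87 and 0.79, and at 48 h 0.86 and 0.76. INO1 differed by 0.23 at 24 h, -1.65 at 36 h and -2.27 at 48 h. The mutant array with the highest score is thus also the start of each mutant step from 24 to 36 h. What this did to those steps was not tested. In a fit that carried this score as a term the estimates were closer to 0: -1.01 for INO1, -1.05 for CHO2, -0.60 for ITR1, -0.47 for OPI3, -0.67 for INO4, -0.55 for CHO1 and -0.52 for OPI1. Without the times from 84 h on they were -1.53, -1.20, -0.91, -0.71, -0.86, -0.86 and -0.65.

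Mutant arrays were also set against wild-type arrays 12 h younger or older. The mutant array at 12 h has no younger partner, so the younger pairing also left out that time. The INO1 estimate was -2.23 against the younger arrays and -1.97 against the older ones. The estimates of the other 6 genes that differed ran from -0.60 to -1.63. At 12 h, the time left out, the INO1 difference was only -0.09. By itself, the younger pairing therefore cannot separate a shift in culture age from the loss of that time. Leaving out 12 h alone, with arrays of the same hour paired, also made the INO1 estimate more negative. That fit gave -1.28 for ITR1, -1.09 for CHO1, -1.67 for CHO2, -1.23 for OPI3, -1.14 for INO4 and -0.76 for OPI1. The younger pairing gave -1.28, -1.15, -1.63, -1.21, -1.05 and -0.78. For these 6 genes the estimates of both fits thus lay close together. Brightness is a limit for the highest signals of both strains. As deposited, OPI3 came within 0.68 of the brightest probe set of an array in the wild type and 0.60 in the mutant, and INO1 within 0.85 and 0.80. Whether these probes were near saturation was not tested.

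Over the whole course the time trends of the wild type were small after quantile normalization. The slopes per day were 0.02 (SE 0.10) for INO1, 0.02 (SE 0.08) for ITR1, -0.07 (SE 0.09) for CHO1, 0.06 (SE 0.05) for CHO2, 0.06 (SE 0.04) for OPI3, 0.03 (SE 0.06) for INO2, 0.04 (SE 0.06) for INO4 and -0.12 (SE 0.06) for OPI1. None of the 8 was called rising or falling by limma at an adjusted p under 0.05, where 4.81% of all genes were called rising and 6.46% falling. At an unadjusted p under 0.05 it was 0 of the 8 and 1461 of all genes. In the mutant the slopes were -0.76 (SE 0.12) for INO1, -0.49 (SE 0.05) for OPI3, -0.41 (SE 0.09) for ITR1, -0.39 (SE 0.06) for CHO2, -0.36 (SE 0.10) for CHO1, -0.23 (SE 0.07) for INO4, -0.20 (SE 0.07) for OPI1 and -0.03 (SE 0.07) for INO2. The first 5 of these were called falling and none rising, against 4.64% and 5.38% of all genes. Of the 20 alternatives with a slope per day, thus without log2 of hours, the calls of INO1, OPI3 and CHO2 passed in 20. That of ITR1 passed in 17 and that of CHO1 in 11. As these genes were taken with such differences known, nothing is read from these counts. ITR1 lost its call with array weights (-0.07), from 36 h on and without the times from 84 h on. CHO1 lost it in the same 3, in the deposited values and without 12, 24, 72, 84 or 96 h, with slopes of -0.22, -0.26, -0.35, -0.36 and -0.40. A trend difference was called for INO1 (-0.78), OPI3 (-0.55) and CHO2 (-0.45), all with the mutant slope lower, where 1.74% of all genes were called in that direction and 1.12% in the other. Each of the 3 passed in 18 of the same 20 alternatives, the exceptions being the fits without the times from 84 h on and with the 3' to 5' score.

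A straight line over all times mixes the step at 36 h with what came later. Fitted from 36 h on, the mutant slopes were -0.35 (SE 0.04) for OPI3, -0.28 (SE 0.05) for INO1 and -0.20 (SE 0.06) for CHO2, and those of ITR1 (-0.03), CHO1 (0.07), INO4 (-0.09), OPI1 (-0.02) and INO2 (-0.01) lay closer to 0. The slope of CHO1 changed sign between the fits. The wild-type slopes from 36 h ran from -0.21 for OPI1 to 0.10 for OPI3, and both of these passed the threshold in that fit. OPI1 passed also with array weights (-0.22) and without 12 h (-0.16), and OPI3 after median centring (0.26).

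A rule set after the time courses had been seen asked how many genes share the pattern: within 0.5 of the wild type at 12 and 24 h and at least 2-fold lower in the mutant at all 7 later times. It was met by 29 genes (0.532% of all genes), among them INO1, ITR1, CHO1 and INO4. CHO2 missed it through 24 h, OPI3 and OPI1 through late times under 2-fold. The other 25 included PIS1, CDS1 and SPT14, which encodes a subunit of the enzyme that adds the first sugar to phosphatidylinositol, as well as genes of other roles such as CTS1, the chitinase of daughter cell separation. As deposited, the values gave 29 genes, with 2 of the 8. Median centring gave 46 genes, with 1 of the 8.

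Of 22 other enzymes of phospholipid synthesis limma called 13 lower and 3 higher in the mutant and 6 did not pass, with a median of -0.31, while in the deposited values 5 were lower and 6 higher. Of all genes 26.8% were lower and 32.4% higher, and the counts of the lists are to be read beside these shares. The lower count was 8 with no replicate block and 7 against the wild type 12 h later. PIS1, phosphatidylinositol synthase, which joins inositol to CDP-diacylglycerol, was lower by -1.49 (SE 0.23, limma adjusted p = 0.000239). Its wild-type signals lay between 11.63 and 12.04. In the mutant they were 11.78, 11.17, 9.66, 10.18, 9.87, 10.10, 10.48, 10.02 and 9.99, so that all 7 arrays from 36 h lay below the wild type. CDS1, which makes CDP-diacylglycerol, was lower by -0.90 (SE 0.19, limma adjusted p = 0.00197), with wild-type signals of 9.76 to 10.34 and mutant signals of 8.70 to 9.07 from 36 h. PSD1, the mitochondrial phosphatidylserine decarboxylase, was lower by -0.77 (SE 0.14, limma adjusted p = 0.000663). CDS1 and PSD1 were higher at 12 h than later in both strains, and PIS1 only in the mutant. Between 12 and 24 h CDS1 went from 11.16 to 10.03 in the wild type and from 11.54 to 10.08 in the mutant. PSD1 went from 11.41 to 10.46 in the wild type and from 11.55 to 10.35 in the mutant.

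Higher in the mutant were PCT1, which makes CDP-choline (0.51, limma adjusted p = 0.000716), the cardiolipin pathway phosphatase GEP4 (0.31) and the lysophospholipid acyltransferase ALE1 (0.30). ECT1 (0.22), DGK1 (-0.15) and EKI1 (0.05) did not pass. The calls of CDS1 and GEP4 were lost when the 3' to 5' score was a term of the fit (limma adjusted p = 0.0604 and 0.183), that of CDS1 also against the wild type 12 h later (0.0547) and that of GEP4 without the times from 84 h on (0.153).

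**Figure D4:**
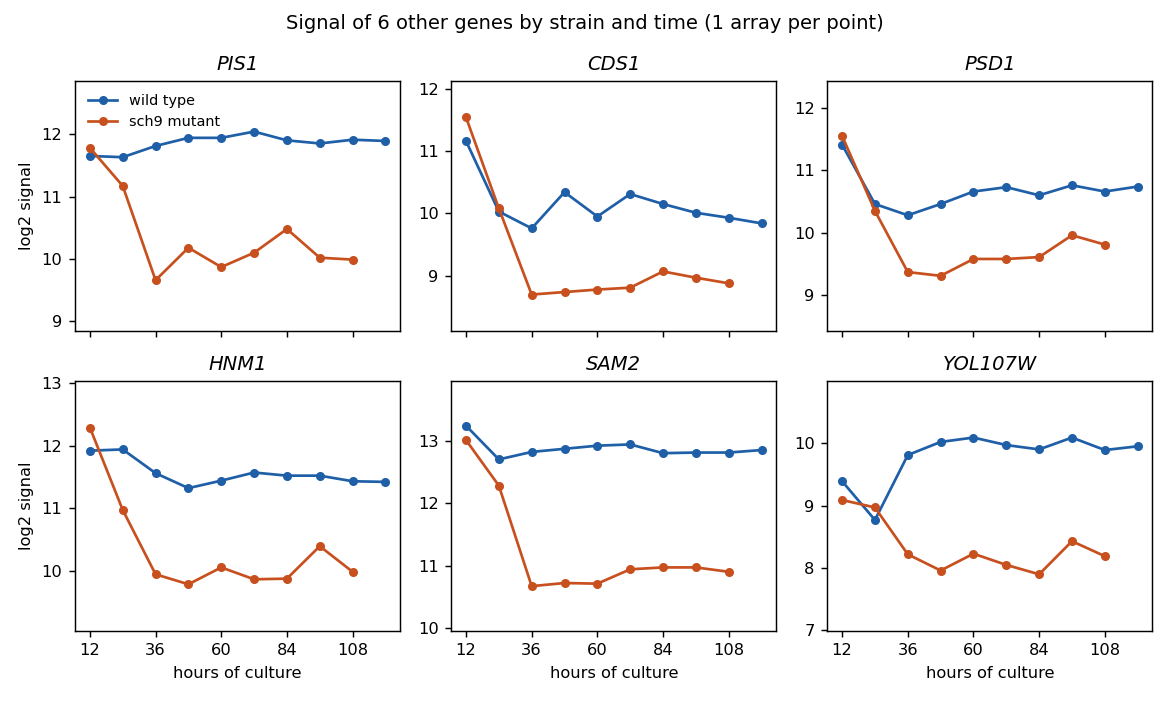
Log2 signal (quantile-normalized) of PIS1, CDS1, PSD1, HNM1, SAM2 and YOL107W against hours of culture, 1 array per point, with the wild type in blue and the labelled mutant in orange, each panel spanning 4 log2 units. In each panel the 7 mutant arrays from 36 h lie below all wild-type arrays of those hours, with a mean difference of -1.87 for PIS1 and -2.01 for SAM2.

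Among 11 other genes of inositol and choline supply, 6 were lower, 3 were higher and the other 2 failed the test, with a median of -0.57, where 26.8% of all genes were lower and 32.4% higher. The higher count was 1 without the times from 84 h on and 5 without the 12 h arrays. HNM1, the choline permease, was lower by -1.23 (SE 0.19, limma adjusted p = 0.00024), and its mutant signal from 36 h lay between 9.78 and 10.39, against 11.32 to 11.57 in the wild type. The phospholipase B genes PLB2 (-1.46, SE 0.27) and PLB3 (-0.98, SE 0.12) were also lower. SPO14, phospholipase D, was higher by 0.99 (SE 0.14, limma adjusted p = 0.000166), as were INM1 (0.49) and INM2 (0.31), which release free inositol from its phosphate. The calls of INM1 and INM2 were lost without the times from 84 h on (limma adjusted p = 0.056 and 0.142) and with the score in the fit (0.184 and 0.202), that of INM1 against the wild type 12 h earlier (0.0984), and that of INM2 after median centring (0.0537), with no replicate block (0.066) and against the wild type 12 h later (0.124). NTE1 (0.23) and GDE1 (0.18) did not pass. ITR2, the minor inositol permease, was named after its values were seen: it was lower by -0.57 (SE 0.07, limma adjusted p = 8.7e-05) and at 9 of 9 times.

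Of 13 other genes that act on the inositol response limma called 6 higher and none lower (0 also at an unadjusted p under 0.05), and 7 did not pass, with a median of 0.36, beside 32.4% higher and 26.8% lower of all genes. IRE1, the sensor of the unfolded protein response, was higher by 0.78 (SE 0.08, limma adjusted p = 1.6e-05) and at 9 of 9 times. The corepressor gene SIN3 and the histone deacetylase gene RPD3 were each higher by 0.51. HAC1 (0.36), SNF2 (0.20) and DEP1 (0.16) did not pass. Median centring made the kinase gene MCK1, named after its values were seen, lower (-0.26, limma adjusted p = 0.00694). With no replicate block, that is without the time points as blocks, the estimates are the same by construction and 2335 genes passed in place of 3225.

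Of 14 genes of fatty acid synthesis and activation 9 were lower, 2 higher and 3 did not pass, with a median of -0.31, again beside 26.8% lower and 32.4% higher of all genes. ELO3, an elongase of very long chains, was lower by -2.21 (SE 0.26, limma adjusted p = 4.5e-05). FAA1, an acyl-CoA synthetase, was lower by -0.98, and FAS2, a fatty acid synthase subunit and known target of Ino2 and Ino4, by -0.86. The count of lower genes was 5 without the times from 84 h on, 5 with the score in the fit, 5 with no replicate block and 4 against the wild type 12 h later. ELO1 (0.54) and SPT23 (0.39) were higher, but ELO1 lost its call with no replicate block (limma adjusted p = 0.0535) and against the wild type 12 h earlier (0.127), and SPT23 under 4 alternatives, among them median centring (0.161). FAA3, OLE1 and FAA4 had estimates of -0.06, -0.06 and -0.05 and did not pass.

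The storage lipid genes and the genes of inositol sphingolipids and phosphoinositides are given beside the same shares of all genes, 26.8% lower and 32.4% higher. Of 10 storage lipid genes 4 were lower and 2 higher, with a median of -0.10. ARE2, a sterol acyltransferase, stood at -0.98 and the lipase gene TGL5 at -0.76. ARE1 stood at -0.41, but at -0.14 in the deposited values (limma adjusted p = 0.152). As deposited, 2 storage genes were lower and 4 higher. The higher genes TGL3 (0.35) and TGL1 (0.28) lost their calls under 3 and 2 alternatives. Of 28 sphingolipid and phosphoinositide genes 7 were lower and 10 higher, with a median of 0.00; 4 were lower with no replicate block or against the wild type 12 h earlier. These counts are near the shares of all genes. ISC1, which splits inositol sphingolipids, was lower by -0.96, the ceramide synthase gene LAC1 by -0.83 and AUR1, which transfers inositol phosphate to ceramide, by -0.74. FAB1, a lipid kinase of the vacuole, was higher by 0.77, the serine palmitoyltransferase gene LCB2 by 0.62 and the phosphatase gene INP54 by 0.59.

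Time trends were called for 10 of the 98 list genes in the wild type (10.2%) and for 11 in the mutant (11.2%), near the background of 614 and 546 of all 5449 genes. In the wild type 3 of the 11 supply genes were called rising by limma, all of them phospholipase B genes: PLB2 by 0.40 (SE 0.07), PLB3 by 0.38 (SE 0.09) and PLB1 by 0.13 (SE 0.03) per day. None of the 14 fatty acid genes passed there (0 also at an unadjusted p under 0.05). In the mutant 3 of these 14 were called falling: FAA3 by -0.34 (SE 0.09), the acetyl-CoA carboxylase gene ACC1 by -0.32 (SE 0.07) and MGA2, which encodes a membrane-bound activator of OLE1, by -0.18 (SE 0.04) per day. HAC1, the transcription factor downstream of Ire1, was rising in the mutant by 0.34 (SE 0.06, limma adjusted p = 0.00327). Each of these 7 calls was lost under 1 to 5 of 21 alternatives: that of PLB2 with the 3' to 5' score in the fit, those of the other 6 at least without the times from 84 h on, that of PLB3 also without 24 h and that of FAA3 also without 84 h. The slope differed between strains for 5 of the 98 list genes (5.1%), ECT1, PLB2, HAC1, MGA2 and LAC1, beside 2.86% of all genes. PLB2 lost this call under 3 alternatives and the others under 11 to 14, single times left out among them. PIS1, CDS1 and HNM1 had mutant slopes of -0.30, -0.44 and -0.37 per day that did not pass (limma adjusted p of 0.061, 0.0566 and 0.0535).

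The genes whose course was most like that of INO1 were named by Pearson correlation over the 19 arrays, as a description. The arrays share strain and time, and the mutant arrays from 36 h form a cluster of their own, so a high value says only that a gene separated the same arrays. ITR1 came first of all genes at 0.991, OPI3 was 3rd (0.977), CHO1 5th (0.96) and CHO2 8th (0.952). INO4 (0.899), OPI1 (0.827) and INO2 (0.296) followed at ranks 40, 132 and 1662. In the deposited values these were 0.803, 0.524 and -0.397, at ranks 147, 702 and 3266. Outside the 8 genes the 8 most alike were USB1 (0.985), SPO11 (0.961), SAM2 (0.958), HEM15 (0.954), SAC6 (0.952), UGP1 (0.951), YER138W-A (0.95) and YIL082W-A (0.946), the last 2 read by probe sets shared with other sequences and so uncertain. SPO11 was dim, with mutant signals of 7.47 to 8.74. SAM2 encodes a synthase of S-adenosylmethionine, the methyl donor that Cho2 and Opi3 use. Its mutant signals from 36 h lay between 10.67 and 10.97, against 12.80 to 12.94 in the wild type. In the deposited values, and with the strain means removed, 4 of these 8 genes were among the 8 most alike, and SAM2 was 1st and 8th.

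The genes next to the 8 on the chromosomes were looked up in assembly R64 after the time courses had been seen. Of the 16 nearest measured neighbours 4 were lower in the mutant from 36 h without overlap, again beside 17.1% of all genes, and their median late difference was -0.01. VPS35 and SNA3, on either side of INO1, stood at 0.08 and 0.05, so the difference at INO1 was not shared by them. AIM17 beside OPI1 stood at -1.51, but was already lower at 12 and 24 h (-1.77 and -1.26). NPA3 beside OPI3 and YDR124W beside INO2 stood at -0.56 and -0.53. The remaining one was YOL107W, an uncharacterized gene beside INO4. The genes are on opposite strands and point away from each other, with 215 bases between them. YOL107W had a late difference of -1.83 ± 0.18 (SD, n = 7 times), with 7.90 to 8.43 in the mutant against 9.81 to 10.09, and it was the only neighbour that met the pattern rule. Between 12 and 24 h the wild-type signal of YOL107W went from 9.39 to 8.77, and that of INO4 from 9.31 to 10.16.

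The check of the labels gave SCH9 (YHR205W) a paired difference of -0.52 ± 0.39 (SD, n = 9 times, exact permutation test of signs, two-sided, p = 0.00781, lower at 8 of 9 times), and -0.39 in the deposited values (exact p = 0.109). Since it is not known here whether the probes fall inside the deletion, this does not check the strain. Beside 26.8% lower and 32.4% higher of all genes, alpha-cell markers were lower in the mutant for 3 of 4 genes, and the mean level of the list ran from 9.22 to 12.78 in the mutant, against a wild-type range of 10.73 to 12.52. Markers of a cells were higher for 3 of 7, with mean levels of 7.99 to 8.41 and 7.86 to 8.32, and 4 of 5 sporulation markers were lower, at 7.50 to 7.91 and 7.82 to 8.17. The a-cell and sporulation lists were dim, with mean levels below every signal of INO2, itself in the dimmest 25% of genes. What such dim signals did to the calls was not tested. Of the marker calls limma lost that of MF(ALPHA)1 without the times from 84 h on (adjusted p = 0.0841) and with the score in the fit (0.145), and those of the a-cell markers AGA2 after median centring (0.342), BAR1 as deposited (0.086) and ASG7 under 4 alternatives, among them cyclic loess (0.284). The alpha-factor gene MF(ALPHA)1 stood at -0.10 and 0.21 at 12 and 24 h and at a mean of -1.72 from 36 h. Its mutant slope over all times was -1.06 per day (SE 0.07), and its strain estimate was -0.69 without the times from 84 h on. Its strains were thus close at 12 and 24 h and apart on average later. The hour at which they parted is not given by that mean. The part of cell type or state in the differences of the phospholipid genes was not tested.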

How the data were processed

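Affymetrix Yeast 2.0 arrays of total RNA, 1 per strain and time, were deposited by the authors as probe set summaries whose log2 scale was inferred from their range of 5.76 to 15.02. The sources used here do not give the software, background correction or normalization. Of 5814 probe sets 5498 named 1 gene, all matched to assembly R64 by gene ID with 12 symbols updated. The brightest probe set was kept for each of 47 genes with several, giving 5449 genes. Column medians spanned 0.62, more than the 0.1 allowed, so columns were quantile-normalized. limma 3.58.1 (R 4.3.3) was fitted across all genes, as strain with time points as blocks (18 arrays, 8 residual degrees of freedom) and as slopes per day in each strain (19 arrays, 15 residual degrees of freedom), with Benjamini-Hochberg adjustment. No replicate cultures were given, so p-values measure spread over time points. Procedures were tested on simulated data.

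The 8 genes and the gene lists were chosen with earlier results of these data known. Named list genes were the 3 largest estimates in each direction past the threshold and up to 3 others. Alternatives were other scalings (median centring, cyclic loess, values as deposited), an intensity trend with a robust prior, array weights, dim probe sets left out (4086 genes kept), mean probe sets, time ranges, the 3' to 5' score as covariate, no time blocks, shifted pairing, log2 of hours, an adjusted p under 0.01 and each time left out. A description of promoter motifs had been planned and was not made.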

Additional observations from a re-analysis of the deposited data

Results flagged for a closer look

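In 27 sets of arrays checked for a value far from the others (each of the 8 genes and SCH9, in each strain and as paired differences), 4 values on 2 arrays stood out, where chance gives about 1 in 20 sets. They were those of the wild-type 12 h array for CHO1 (12.02, the highest), CHO2 (12.73, the lowest) and INO4 (9.31, the lowest), and that of the mutant 24 h array for INO4 (10.03, the highest). At 12 h the mutant signals of the same genes were 12.01, 12.73 and 9.22.

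The slopes over time differed between the strains in the limma fit for INO1 (-0.78 log2 per day, mutant minus wild type), OPI3 (-0.55) and CHO2 (-0.45), which were chosen with such differences known. Outside them the slope differed for PLB2 (-0.56, limma adjusted p = 0.0105), HAC1 (0.36, adjusted p = 0.026), LAC1 (-0.26, adjusted p = 0.028), MGA2 (-0.19, adjusted p = 0.0433) and ECT1 (0.16, adjusted p = 0.0439). Where the 3' to 5' score entered the fit, limma called 0 genes for this difference, and 435 at an unadjusted p under 0.05.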

How the results depend on the processing

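The strain comparison called 3225 genes and kept within 1.5 times of that under every alternative run, from 2335 with no replicate block (no time points as blocks) to 4183 with array weights, and from 2878 to 3478 with each time left out. For the 7 genes other than INO2, all 154 alternative estimates were negative and 153 passed, the exception being OPI1 in the deposited values (-0.43). For INO2, 20 of 21 were negative and 1 passed. The alternatives refit the same arrays for genes chosen with these differences known. The counts therefore describe the processing only, and nothing is supported by them. The share of higher genes among those called was 54.8%, 66.3% as deposited and 38.8% after median centring. The counts of time trends were less stable. In the wild type (614 genes) they were 1603 with array weights, 374 without dim probe sets, 2430 from 36 h on, 48 without the times from 84 h on, 0 with the 3' to 5' score in the fit (574 at an unadjusted p under 0.05), 1285 on log2 of hours and 158 at an adjusted p under 0.01. In the mutant (546 genes) array weights gave 1657, times from 36 h on 1228, times before 84 h 31, log2 of hours 1440 and an adjusted p under 0.01 gave 210. For the trend difference (156 genes) the same 5 gave 1533, 1617, 9, 280 and 37, and the score in the fit gave 0 (435 at an unadjusted p under 0.05). Leaving out 1 time gave 306 (96 h) to 2262 (12 h) genes in the wild type, 282 (84 h) to 1564 (12 h) in the mutant and 58 (84 or 108 h) to 1732 (12 h) for the difference. The share rising in the wild type was 42.7%, 15.7% as deposited, 68.0% after median centring and 54.6% after cyclic loess. The share of trend differences above 0 was 39.1%, 61.3% as deposited and 27.3% after median centring. The mutant slope of CHO1 turned to 0.03 with array weights and 0.07 from 36 h on. The wild-type slope of ARE1 turned to -0.01 with the score in the fit. BAR1 turned to -0.06 after median centring, and ASG7 to -0.15 as deposited and -0.40 after median centring. SCH9 stood at -0.39 as deposited (exact permutation p = 0.109). For changes with no value beside them, the cause was not tested. With 1 array per time and no replicate cultures, nothing here measures the spread between cultures.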
